A study of Mus musculus with 6 samples.

Results

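The genes described here are 60 genes of mitosis. They comprise cyclins, the kinase Cdk1 and its phosphatases, the mitotic kinases, the spindle checkpoint, the kinesins, the kinetochore and the chromosomal passenger complex. The spindle, the cytokinesis machinery, the chromosome-structure proteins, and the regulator Foxm1 with the marker Mki67 complete the set. The 60 genes were chosen by name, but with earlier results of these data known. Each of the 60 symbols matched 1 row of the deposited table of 55401 genes. The table compares wild-type mouse cells given neutrophil extracellular traps, or NETs (chromatin strands with granule protein that neutrophils cast out; labelled NETs-treated), with cells not given them (labelled Normal, here called control), 3 samples each, by strand-specific RNA-seq of total RNA. One label names the cells BMDM, macrophages grown from bone marrow, but the titles carry BV2, an immortalised mouse microglial line, and the labels do not settle which they were. No source used here gives the dose, the time of exposure, or whether replicates were grown separately. The p-values therefore reflect only how far these samples spread, which may be technical.

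Total counts ran from 39994613 to 44274445 per library, and all 60 genes passed the filter on low counts that left 15272 genes for testing. All 10 macrophage markers had counts. Of these 7 were lower and 2 higher in NETs-treated cells, beside 27.2% lower and 25.5% higher among all tested genes. Levels are given in CPM, counts scaled to a common library size by the TMM method. The summed level of the macrophage list was 6390 to 6590 CPM in control and 10900 to 11200 CPM in NETs-treated libraries. Within that list Lyz2 and Cd14 rose and Cd68 and Itgam fell; Cd14, a co-receptor for bacterial lipopolysaccharide, went from 691 ± 6.08 to 5442 ± 85.7 CPM, whereas Csf1r, the receptor of the macrophage growth factor CSF1, fell from 178 ± 8.97 to 87.1 ± 1.57 CPM (SD, n = 3). Of 8 microglial markers, Sall1 was at 0 in all libraries. Of 12 neutrophil markers, 6 (S100a9, Ly6g, Mpo, Ltf, Ngp and Retnlg) had no count in any library, and the summed level was 6.52 to 8.57 CPM in control and 10.9 to 16.8 CPM in NETs-treated libraries, most of it S100a8 in the latter. In that list S100a8 rose, Cxcr2 (from 1.60 ± 0.220 to 0.809 ± 0.185 CPM) and Prtn3 (from 1.26 ± 0.478 to 0.209 ± 0.225 CPM) fell, and Mmp8 was not called. Fibroblast, T cell and B cell markers summed to less than 1 CPM and erythroid markers to at most 1.30 CPM in every library. The part of these markers in the results was not tested.

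Entry into mitosis is driven by Cdk1 bound to cyclin B, which the phosphatases of the CDC25 family switch on. Kinesins and microtubule-binding proteins then build the spindle, kinetochores attach the chromosomes to it, and the spindle checkpoint holds back the anaphase-promoting complex until every chromosome is attached, after which the cell divides in cytokinesis. Transcripts of these genes accumulate in G2 and M phase, and many of their promoters are known to carry CCAAT boxes, bound by NF-Y, together with a CHR element, the site through which the MuvB core with B-MYB or FOXM1 activates them and the DREAM complex represses them. Mitotic transcripts are therefore used as a measure of how much of a population is dividing. In bulk RNA, fewer dividing cells and less RNA per dividing cell cannot be told apart.

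Promoter sequences are shown first because the bases themselves do not come from the counts. The choice of the 60 genes was not independent of the data, as earlier results were known. The motif shares are therefore descriptions of the chosen genes. RefSeq promoters (GRCm38.p6, 250 bases before to 50 bases after the start) were found for 51 of the 60 genes. The CHR letters TTTGAA or TTCGAA, searched on both strands, were present for 40 of these 51 genes (78.4%), against 20.2% of 17492 protein-coding genes with windows of the same length. The CCAAT box, also searched on both strands, was present for 36 (70.6%) against 42.3%, and both motifs for 34 (66.7%) against 8.22%. The E2F core GCGGGAA, typical of genes of the G1-to-S transition, was present for 3 of 51 (5.88%) against 6.84%. In a list of 40 DNA replication genes, 31 had a promoter in the table, of which 22.6% held the CHR letters and 41.9% the E2F core. Across the windows of the 51 genes a CCAAT match and a CHR match shared a base in 1 place, in Cdca8. A match is a stretch of letters, not a measured binding site.

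The windows printed below belong to the gene with the deepest fall in each of 4 groups (cyclins, kinases, checkpoint, kinetochore), and to Ncapg and Cdca8, picked after their values were seen as a gene that was higher and a gene that was not called. Capitals mark CCAAT boxes (ATTGG on the printed strand where the box lies on the other) and TTTGAA, and each sequence runs 5′ to 3′ on the strand of its gene. All are from the GRCm38.p6 build.
Ccnb2, chr9:70421505-70421804, minus strand: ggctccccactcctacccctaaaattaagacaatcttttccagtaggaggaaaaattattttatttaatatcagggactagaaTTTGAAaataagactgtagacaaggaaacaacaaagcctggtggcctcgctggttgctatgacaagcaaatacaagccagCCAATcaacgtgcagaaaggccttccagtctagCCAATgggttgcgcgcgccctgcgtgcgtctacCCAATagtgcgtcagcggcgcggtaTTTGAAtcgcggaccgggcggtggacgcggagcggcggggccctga
Plk1, chr7:122159185-122159484, plus strand: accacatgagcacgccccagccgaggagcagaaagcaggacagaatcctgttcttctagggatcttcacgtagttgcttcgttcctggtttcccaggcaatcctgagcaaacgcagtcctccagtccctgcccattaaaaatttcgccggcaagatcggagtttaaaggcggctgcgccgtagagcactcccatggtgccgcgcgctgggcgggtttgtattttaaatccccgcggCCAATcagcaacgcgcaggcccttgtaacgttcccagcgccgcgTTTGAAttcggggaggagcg
Cdc20, chr4:118437294-118437593, minus strand: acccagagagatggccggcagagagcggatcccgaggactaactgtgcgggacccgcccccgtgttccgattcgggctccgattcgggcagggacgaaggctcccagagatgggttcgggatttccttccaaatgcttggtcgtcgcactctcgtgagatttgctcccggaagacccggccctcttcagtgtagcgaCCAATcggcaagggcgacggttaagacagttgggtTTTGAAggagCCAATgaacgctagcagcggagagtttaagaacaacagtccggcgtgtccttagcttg
Cenpf, chr1:189688037-189688336, minus strand: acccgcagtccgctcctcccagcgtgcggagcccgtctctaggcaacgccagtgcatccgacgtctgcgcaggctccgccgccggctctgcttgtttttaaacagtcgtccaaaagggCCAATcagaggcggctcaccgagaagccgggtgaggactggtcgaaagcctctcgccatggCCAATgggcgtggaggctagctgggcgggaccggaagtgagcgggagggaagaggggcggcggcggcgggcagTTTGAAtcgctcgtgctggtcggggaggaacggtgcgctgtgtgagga
Ncapg, chr5:45669675-45669974, plus strand: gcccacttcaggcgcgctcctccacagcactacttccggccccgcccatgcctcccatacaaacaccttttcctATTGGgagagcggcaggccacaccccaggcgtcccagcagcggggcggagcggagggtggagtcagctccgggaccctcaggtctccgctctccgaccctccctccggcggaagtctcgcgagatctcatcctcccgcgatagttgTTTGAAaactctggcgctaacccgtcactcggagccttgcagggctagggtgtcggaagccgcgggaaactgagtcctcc
Cdca8, chr4:124936868-124937167, minus strand: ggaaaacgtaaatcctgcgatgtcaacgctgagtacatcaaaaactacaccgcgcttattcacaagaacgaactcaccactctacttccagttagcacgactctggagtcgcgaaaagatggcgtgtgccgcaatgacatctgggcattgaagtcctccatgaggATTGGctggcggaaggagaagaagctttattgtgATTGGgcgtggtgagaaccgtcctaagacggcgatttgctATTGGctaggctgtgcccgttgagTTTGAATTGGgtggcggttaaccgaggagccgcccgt

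Ccnb2 has 3 CCAAT boxes and 2 TTTGAA matches in its window, and Plk1 has 1 of each. Cdc20 and Cenpf each have 2 CCAAT boxes and 1 TTTGAA. Ncapg, which was higher, has 1 of each, and Cdca8, which was not called, has 4 CCAAT boxes and 1 TTTGAA. Over all windows of the 51 genes the CCAAT matches had their median first base at position -69 from the start and the TTTGAA matches at position -15. Among genes called lower 32 of 37 with a promoter (86.5%) held the CHR letters, and among those not called or higher 8 of 14 (57.1%). The difference was not tested, and the split uses the same fold changes that are described next.

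**Figure D1:**
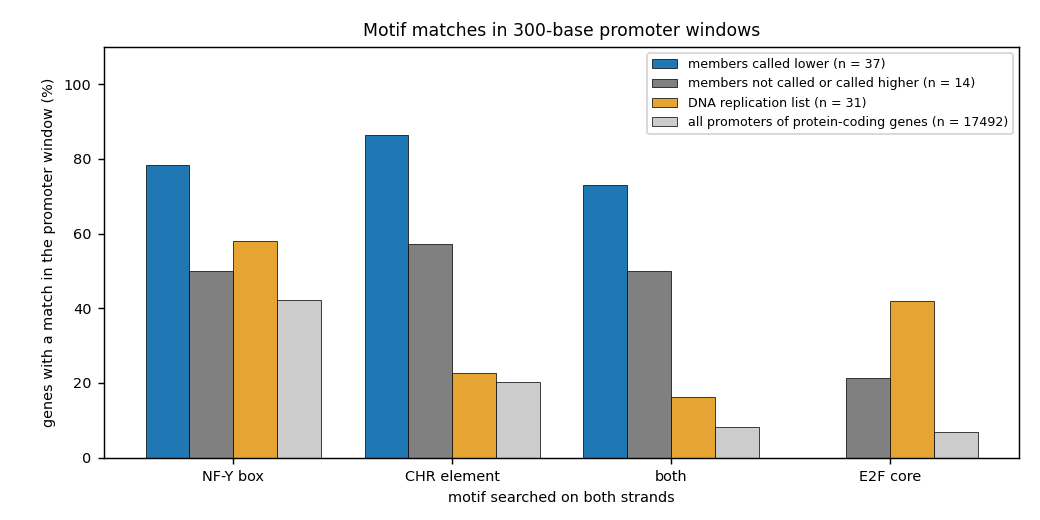
Share of genes (vertical axis, percent) with a match to the CCAAT box bound by NF-Y, to the CHR letters, to both, or to the E2F core in the 300-base promoter window, for mitosis genes called lower, the other mitosis genes, the DNA replication list and all protein-coding genes (bars, with the number of genes in the legend). The CHR letters stand at 86.5% and 57.1% in the mitosis groups and at 22.6% and 20.2% in the other groups.

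The comparison addresses how transcripts of mitosis differ between NETs-treated and control cells. They were mostly lower: 45 of the 60 genes (75%) fell and 2 rose (edgeR quasi-likelihood fit, p under 0.05 after Benjamini-Hochberg adjustment across all tested genes, n = 3 per group). Among all tested genes 52.7% were called, 27.2% as lower and 25.5% as higher. The median log2 fold change was -0.58 over the 60 genes and -0.02 over all tested genes. At least a 2-fold fall was called for 15 of the 60, against 11.9% of all tested genes. For 47 of the 60 every NETs-treated library lay below every control library, against 32.5% of all tested genes, and for 2 (Bub3 and Ncapg) every NETs-treated library lay above, against 29.9%. The counts of all 60 genes together made up 3902, 4137 and 4119 CPM in control and 2598, 2699 and 2688 CPM in NETs-treated libraries. These ranges lay far apart.

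The called falls ran from a log2 fold change of -1.75 (Ccnb2) to -0.27 (Ckap5). Leaving out 1 library at a time gave 41 to 47 genes lower and 1 to 2 higher. In control replicate 1 only 14 of the 60 genes lay above their control mean, and in NETs-treated replicate 1 only 21 lay above their NETs-treated mean. Of the 13 genes not called, Knl1 and Birc5 had an unadjusted p under 0.05. In length-corrected terms (CPM per kilobase of merged exons) the highest control levels were those of Cdc25b (52.97), Ccnb2 (46.3), Ube2c (40.8) and Tpx2 (37.6), and the lowest that of Kif18a (1.87). In NETs-treated cells Cdc25b (43.2), Ube2c (35.6) and Tpx2 (24.3) still led on this scale, whereas Ccnb2 stood at 13.8. The median coefficient of variation between libraries was 6.50% in control and 10.1% in NETs-treated cells over the 60 genes.

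**Figure D2:**
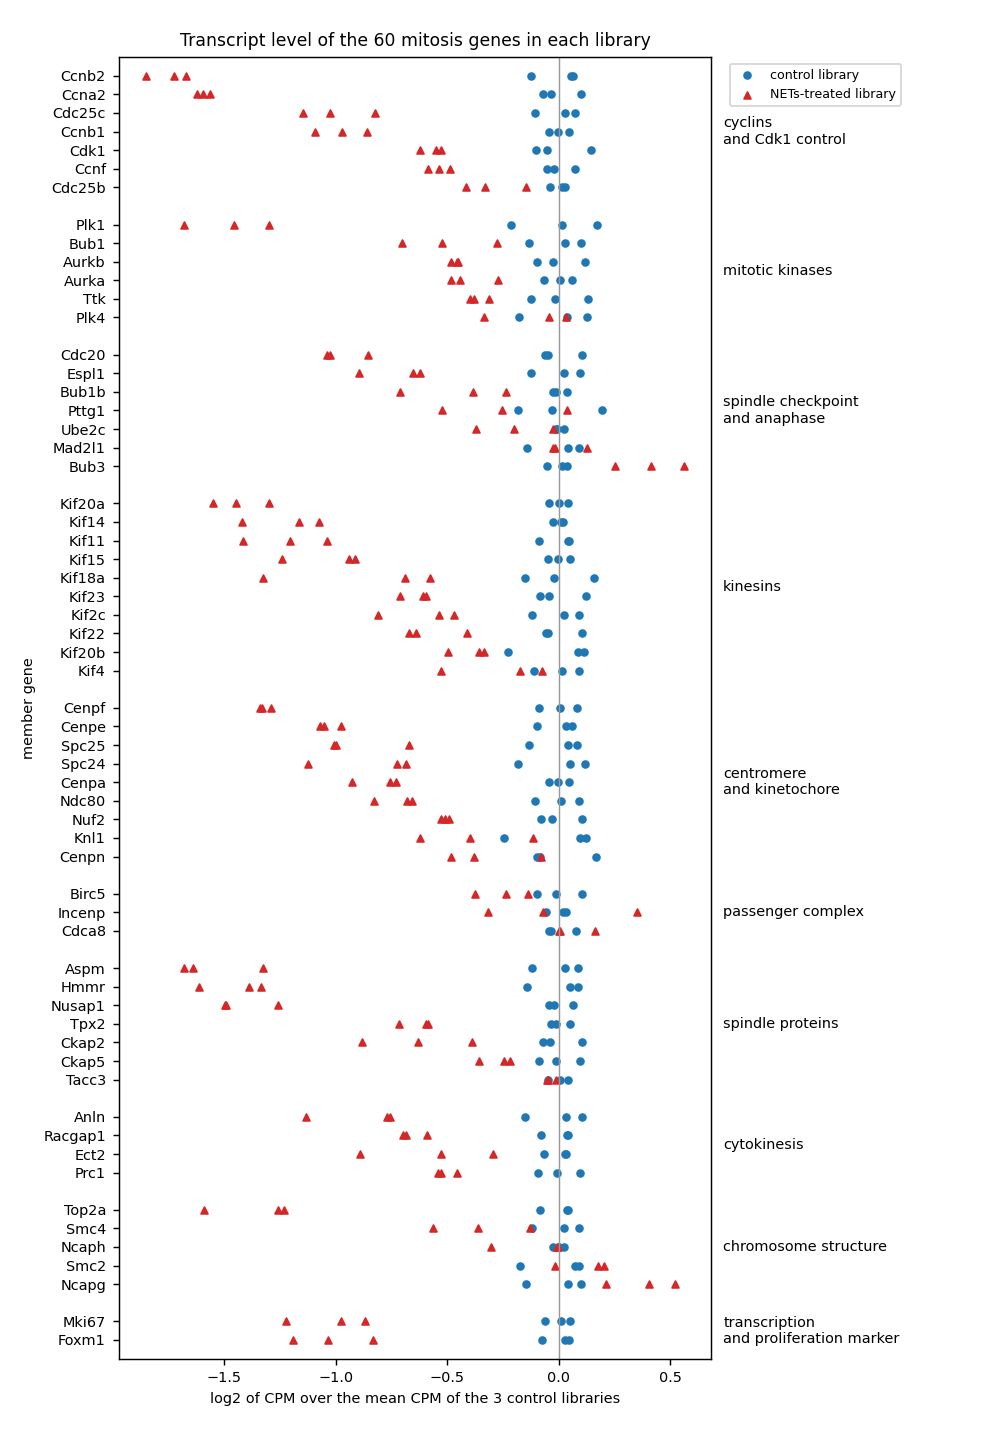
Level of each of the 60 genes in every library, as log2 of its CPM over the mean of the 3 control libraries (horizontal axis), grouped by role (circles, control; triangles, NETs-treated). Triangles lie left of all circles for 47 genes and right of them for Bub3 and Ncapg.

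**Figure D3:**
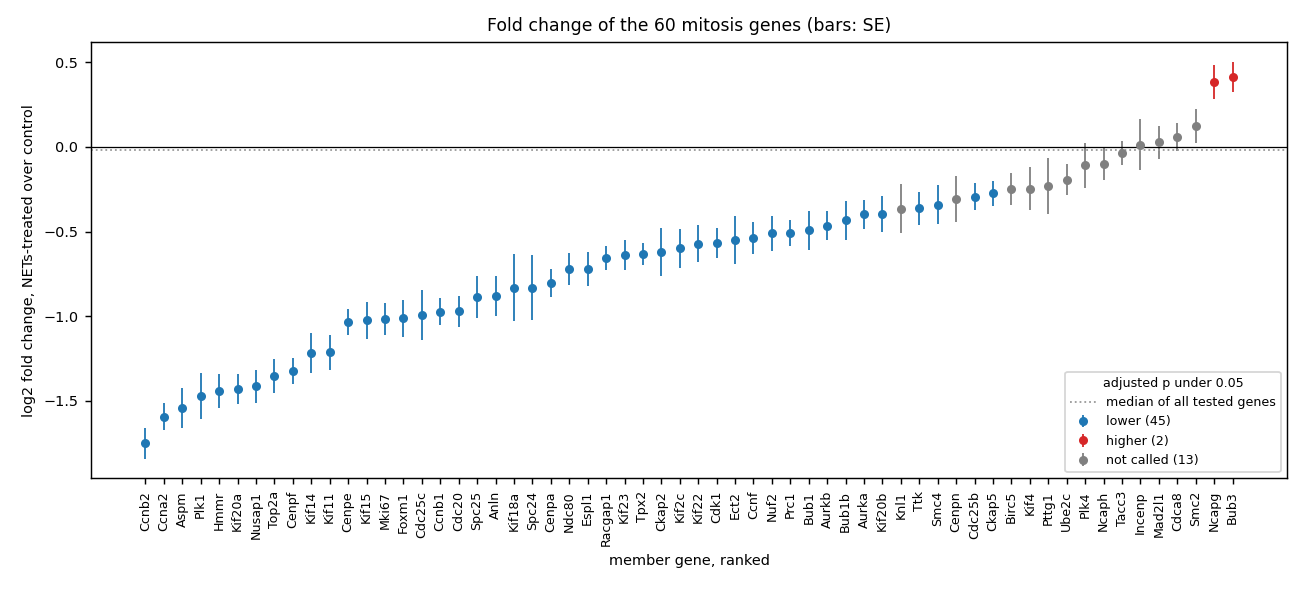
Log2 fold change of NETs-treated over control (vertical axis) for the 60 genes in rank order, with SE bars, coloured by call (45 lower, 2 higher, 13 not called); the dotted line is the median of all tested genes, -0.02. Values run from -1.75 for Ccnb2 to 0.41 for Bub3.

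The counts of each role group below are to be read against the 27.2% lower and 25.5% higher among all tested genes. Groups without overlap are to be read against the 32.5% with every NETs-treated library below every control library. All 7 genes of the group that holds Cdk1, cyclins and CDC25 phosphatases fell (median log2 fold change -0.97). Ccnb2, the gene of cyclin B2 (ENSMUSG00000032218.7, chromosome 9 from 70407692 to 70421547 in GRCm38), had 73.7, 64.9 and 73.96 CPM in control and 19.6, 21.4 and 22.2 CPM in NETs-treated libraries. This is a log2 fold change of -1.75 ± 0.09 (SE; edgeR adjusted p = 1.95e-06), the deepest among the 60 genes. Ccna2, the gene of cyclin A2, which acts from S phase into early mitosis, had 71.2, 69.6 and 78.3 CPM in control and 23.7, 24.7 and 24.1 CPM in NETs-treated libraries. Its values thus did not overlap between groups, and its log2 fold change was -1.59 ± 0.08. Ccna2 shares 12.5% of its exon bases with Exosc9 on the other strand, whose summed counts were 2929 in control and 3413 in NETs-treated libraries. Cdc25c, a phosphatase gene that serves to switch Cdk1 on, had 10.8, 11.8 and 12.2 CPM in control and 5.24, 6.56 and 5.70 CPM in NETs-treated libraries, a log2 fold change of -0.99 ± 0.15. Ccnb2 and Cdc25c likewise had every NETs-treated value below every control value.

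The main mitotic cyclin gene Ccnb1 had 117, 120.2 and 124 CPM in control and 56.5, 61.3 and 66.3 CPM in NETs-treated libraries, a log2 fold change of -0.97 ± 0.08. Cyclin B2 transcripts thus fell 3.36-fold and cyclin B1 transcripts 1.96-fold, and the difference between these falls was not tested. Both cyclins have a named pseudogene copy; Ccnb1-ps had 155 counts over the control and 57 over the NETs-treated libraries, and Ccnb2-ps 0 and 10. Cdk1 itself changed by -0.57 ± 0.09, with 55.2, 65.5 and 57.1 CPM in control and 38.5, 40.4 and 41.1 CPM in NETs-treated libraries. Ccnf, the gene of an F-box protein that marks mitotic regulators for degradation, changed by -0.54 ± 0.10. Cdc25b had the smallest fall, -0.29 ± 0.08 (edgeR adjusted p = 0.0148). This call was lost without control replicate 3 (-0.28, edgeR adjusted p = 0.0587) or NETs-treated replicate 2 (-0.26, edgeR adjusted p = 0.0664).

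Of the 6 mitotic kinase genes 5 fell and 1, Plk4, was not called. Plk1, the polo-like kinase of mitotic entry and cytokinesis (ENSMUSG00000030867.7, chromosome 7 from 122159439 to 122169873), had 52.2, 46.8 and 39.99 CPM in control and 18.8, 16.9 and 14.4 CPM in NETs-treated libraries. The groups lay far apart, with a log2 fold change of -1.47 ± 0.13 (edgeR adjusted p = 3.94e-05). Bub1, a checkpoint kinase at kinetochores, went from 102, 119 and 114 to 68.4, 77.6 and 91.9 CPM, a log2 fold change of -0.49 ± 0.12. Aurkb, the kinase of the passenger complex, had 43.8, 46.1 and 50.9 CPM in control and 34.3, 34.2 and 33.6 CPM in NETs-treated libraries. The spread among the NETs-treated libraries was below 1 CPM for Aurkb, and its log2 fold change was -0.46 ± 0.08. For Bub1 and Aurkb, too, the groups did not overlap. Aurka, the kinase of spindle poles, changed by -0.40 ± 0.08, and Ttk, which starts checkpoint signalling, by -0.36 ± 0.10; Ttk did not pass without control replicate 3 (-0.30, edgeR adjusted p = 0.0627). Plk4, which governs centriole duplication, had 19.1, 23.7 and 22.2 CPM in control and 17.2, 21.03 and 22.1 CPM in NETs-treated libraries. Its groups overlapped, with a log2 fold change of -0.11 ± 0.13 (edgeR adjusted p = 0.524).

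Of the 7 genes of the spindle checkpoint and anaphase 3 fell, 1 rose and 3 were not called. Among all tested genes 27.2% were lower and 25.5% higher. Cdc20, which activates the anaphase-promoting complex (ENSMUSG00000006398.15, chromosome 4 from 118432901 to 118437352), had 56.00, 50.3 and 49.9 CPM in control and 28.8, 25.3 and 25.5 CPM in NETs-treated libraries. Its log2 fold change was -0.97 ± 0.09 (edgeR adjusted p = 4.52e-05). Espl1, the gene of separase, which cuts cohesin at anaphase, went from 89.3, 85.02 and 76.6 to 54.3, 44.9 and 53.1 CPM. The checkpoint gene Bub1b, which encodes BUBR1, had 77.3, 74.9 and 74.2 CPM in control and 63.9, 57.8 and 46.02 CPM in NETs-treated libraries. The lowest control value of Espl1 and of Bub1b thus lay above the highest NETs-treated value, with log2 fold changes of -0.72 ± 0.10 and -0.43 ± 0.12.

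Bub3, which binds both BUB1 and BUBR1, moved the other way, from 82.7, 79.1 and 84.1 CPM in control to 97.6, 109 and 121 CPM in NETs-treated libraries. The groups did not overlap and the log2 fold change was 0.41 ± 0.09 (edgeR adjusted p = 0.00462). Mad2l1, the gene of the checkpoint protein MAD2, had 25.1, 29.6 and 28.5 CPM in control and 27.4, 30.2 and 27.2 CPM in NETs-treated libraries, with overlapping groups and a log2 fold change of 0.03 ± 0.10. Pttg1, the gene of securin, which holds separase inactive, had 15.6, 17.4 and 20.3 CPM in control and 18.2, 14.9 and 12.4 CPM in NETs-treated libraries. It was not called, at -0.23 ± 0.17. Ube2c, the ubiquitin-conjugating enzyme of the anaphase-promoting complex, stood at 105, 105 and 108 CPM in control and 81.9, 92.03 and 104 CPM in NETs-treated libraries. Its NETs-treated values lay below the control values without passing the test (-0.19 ± 0.09), but it was called without NETs-treated replicate 3 (-0.28, edgeR adjusted p = 0.0170) and with scaling by library size only (-0.27, edgeR adjusted p = 0.0393). Ube2c shares 22.8% of its exon bases with Tnnc2 on the other strand, which had 12 counts over the control and 13 over the NETs-treated libraries.

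Of 10 kinesin genes, which encode motors on microtubules, 9 fell and 1 was not called (median log2 fold change -0.73). Kif20a, a motor that carries the passenger complex to the spindle midzone (ENSMUSG00000003779.16), had 57.3, 60.9 and 59.1 CPM in control and 23.99, 21.6 and 20.2 CPM in NETs-treated libraries, a log2 fold change of -1.43 ± 0.09. It shares 29.3% of its exon bases with Cdc23 on the other strand, a gene that was at 49.5 ± 3.90 CPM in control and 37.6 ± 3.33 CPM in NETs-treated libraries. Kif14, a motor of cytokinesis, went from 25.5, 26.3 and 26.2 to 9.71, 12.3 and 11.6 CPM, with a log2 fold change of -1.21 ± 0.12. Kif11, which pushes the spindle poles apart, went from 80.7, 88.1 and 88.4 to 32.1, 41.7 and 37.2 CPM, at -1.21 ± 0.10. For each of these 3 motors every NETs-treated value lay far below every control value.

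Kif15, which can share the work of Kif11, changed by -1.02 ± 0.11, and Kif18a, which dampens chromosome movement, by -0.83 ± 0.20. Kif23, a part of the centralspindlin complex, changed by -0.64 ± 0.09, the microtubule depolymerase gene Kif2c by -0.60 ± 0.12, and the chromosome-arm motor gene Kif22 by -0.57 ± 0.11. Kif20b had the smallest called fall, -0.39 ± 0.11, which was lost without control replicate 2 (-0.35, edgeR adjusted p = 0.0569) or control replicate 3 (-0.34, edgeR adjusted p = 0.0604). The chromokinesin gene Kif4 had 35.6, 38.8 and 40.98 CPM in control and 34.1, 36.5 and 26.7 CPM in NETs-treated libraries, and was not called (-0.25 ± 0.12). Kif4 shares 15.1% of its exon bases with Pdzd11 on the other strand.

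At the centromere and kinetochore 7 of 9 genes fell and 2 were not called (median log2 fold change -0.80). Cenpf, a large protein of the outer kinetochore (ENSMUSG00000026605.14, chromosome 1 from 189640606 to 189688086), had 62.2, 66.4 and 69.9 CPM in control and 26.1, 26.3 and 27.05 CPM in NETs-treated libraries. The 3 NETs-treated values lay within 1 CPM of each other, and the log2 fold change was -1.32 ± 0.08 (edgeR adjusted p = 3.63e-06). Cenpe, a motor that brings chromosomes to the spindle equator, went from 65.3, 72.9 and 71.5 to 33.3, 33.7 and 35.5 CPM, at -1.03 ± 0.08. Spc25, a subunit of the microtubule-binding NDC80 complex, went from 26.3, 29.7 and 30.6 to 14.3, 14.4 and 18.1 CPM, at -0.88 ± 0.13. For Cenpe and Spc25 all NETs-treated values lay below all control values. The other NDC80 subunits also fell, with log2 fold changes of -0.83 ± 0.19 for Spc24, -0.72 ± 0.10 for Ndc80 and -0.51 ± 0.10 for Nuf2. Cenpa, the histone H3 variant that marks centromeres, changed by -0.80 ± 0.08.

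Knl1, the scaffold that recruits the checkpoint proteins, had 42.02, 54.2 and 53.2 CPM in control and 32.4, 37.8 and 45.9 CPM in NETs-treated libraries. Control replicate 1 was lower than the other controls and the groups overlapped, with a log2 fold change of -0.36 ± 0.15 (edgeR adjusted p = 0.064). Knl1 was called lower without control replicate 1 (-0.48, edgeR adjusted p = 0.0361), without NETs-treated replicate 3 (-0.50, edgeR adjusted p = 0.0119), with DESeq2 (-0.36, adjusted p = 0.0374) and in the authors' deposited table (-0.36, adjusted p = 0.0380). It was also called with scaling by library size only (-0.44, edgeR adjusted p = 0.0334), with an offset for transcript length (-0.40, edgeR adjusted p = 0.0319) and with an offset for GC content (-0.61, edgeR adjusted p = 0.000249). Cenpn, which binds the Cenpa nucleosome, had 22.4, 26.9 and 22.6 CPM in control and 17.1, 22.6 and 18.4 CPM in NETs-treated libraries. It was not called (-0.31 ± 0.14), but passed the test without NETs-treated replicate 2 (-0.41, edgeR adjusted p = 0.0404) and with scaling by library size only (-0.38, edgeR adjusted p = 0.0402).

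None of the 3 genes of the passenger complex other than Aurkb was called (edgeR; 1 of them, Birc5, had an unadjusted p under 0.05, and DESeq2 called 0). The complex guides chromosome attachment and cytokinesis. Birc5, the gene of survivin, had 33.9, 31.95 and 36.7 CPM in control and 26.3, 31.1 and 28.96 CPM in NETs-treated libraries. Its NETs-treated values all lay below the control values, with a log2 fold change of -0.25 ± 0.10 (edgeR adjusted p = 0.0599), and it was called with scaling by library size only (-0.32, edgeR adjusted p = 0.0213). Incenp, the scaffold of the complex, had 73.4, 78.1 and 77.4 CPM in control and 97.2, 72.7 and 61.3 CPM in NETs-treated libraries, with NETs-treated replicate 1 above all controls and the other two below them. Its log2 fold change was 0.01 ± 0.15. Cdca8, which encodes borealin, had 37.1, 40.4 and 37.3 CPM in control and 38.4, 38.4 and 42.8 CPM in NETs-treated libraries, with overlapping groups and a log2 fold change of 0.06 ± 0.08. Cdca8 shares 4.5% of its exon bases with 9930104L06Rik on the other strand, whose summed counts were 1864 in control and 3007 in NETs-treated libraries.

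Of 7 genes of spindle proteins 6 fell and 1 was not called. Aspm, which focuses spindle poles, had 50.3, 55.7 and 58.1 CPM in control and 17.1, 21.8 and 17.5 CPM in NETs-treated libraries, a log2 fold change of -1.54 ± 0.12. Hmmr, which encodes the hyaluronan-mediated motility receptor, a protein that binds spindle microtubules, went from 78.9, 92.4 and 90.2 to 28.5, 33.2 and 34.5 CPM, at -1.44 ± 0.10. Nusap1, a protein that bundles microtubules near chromosomes, went from 45.6, 46.2 and 49.1 to 16.6, 16.7 and 19.6 CPM, at -1.41 ± 0.10. For all 3 the NETs-treated values were below every control value by a wide margin. Tpx2, which activates Aurora A, changed by -0.63 ± 0.07 and Ckap2 by -0.62 ± 0.14.

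Ckap5, a microtubule polymerase, changed by -0.27 ± 0.07 and did not pass without control replicate 2 (-0.23, edgeR adjusted p = 0.0684) or NETs-treated replicate 2 (-0.27, edgeR adjusted p = 0.0539). Its partner on the spindle, Tacc3, had 45.9, 44.2 and 47.02 CPM in control and 45.3, 44.2 and 44.1 CPM in NETs-treated libraries. Those groups overlapped and the log2 fold change was -0.04 ± 0.07, with the smallest SE among the genes not called. Tacc3 shares 8.1% of its exon bases with Tmem129 on the other strand, whose summed counts were 1871 in control and 3941 in NETs-treated libraries.

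All 4 cytokinesis genes fell, each without overlap between the groups. Among all tested genes 27.2% were lower, and 32.5% had every NETs-treated library below every control library. In a further list of cytokinesis genes, described below, 2 of 11 fell. Anln, which encodes anillin, the scaffold of the contractile ring, had 78.02, 93.1 and 88.5 CPM in control and 39.4, 50.8 and 51.2 CPM in NETs-treated libraries, a log2 fold change of -0.88 ± 0.12. Racgap1, the partner of Kif23 in centralspindlin, went from 101, 109 and 109 to 66.3, 65.6 and 70.7 CPM, at -0.66 ± 0.07. Ect2, the exchange factor that activates RhoA at the cell equator, went from 33.3, 35.5 and 35.6 to 18.8, 24.2 and 28.4 CPM, at -0.55 ± 0.14. Prc1, which bundles the central spindle, had a log2 fold change of -0.51 ± 0.08. It shares 11.1% of its exon bases with Rccd1 on the other strand. The summed counts of Rccd1 were 1776 in control and 672 in NETs-treated libraries, and their part in the Prc1 value was not tested.

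Of 5 genes of chromosome structure 2 were lower, 1 was higher and 2 were not called. Among all tested genes 27.2% were lower and 25.5% higher, so these few calls do not set the group apart. Top2a, the topoisomerase that untangles sister chromatids (ENSMUSG00000020914.17, chromosome 11 from 98992943 to 99024189), had 241, 263 and 263 CPM in control and 84.8, 107 and 109 CPM in NETs-treated libraries. Its log2 fold change was -1.35 ± 0.10 (edgeR adjusted p = 1.47e-05). The other genes of this group belong to condensin, the ring that compacts chromosomes. Ncapg had 52.5, 62.3 and 59.9 CPM in control and 67.4, 76.97 and 83.5 CPM in NETs-treated libraries, a rise of 0.38 ± 0.10 on the log2 scale, and shares 13.4% of its exon bases with Lcorl on the other strand. This call was lost without control replicate 1 (0.31, edgeR adjusted p = 0.0562), and with an offset for transcript GC content, added after seeing the data, the log2 fold change was 0.07 (edgeR adjusted p = 0.372). Smc4 had 104, 114 and 119.7 CPM in control and 76.1, 87.4 and 103 CPM in NETs-treated libraries, a log2 fold change of -0.34 ± 0.11. It lost its call without control replicate 2 (-0.33, edgeR adjusted p = 0.0925), control replicate 3 (-0.30, edgeR adjusted p = 0.117), NETs-treated replicate 1 (-0.22, edgeR adjusted p = 0.0882) or NETs-treated replicate 2 (-0.31, edgeR adjusted p = 0.127), and without the filter on low counts. Smc2 had 48.00, 57.7 and 57.02 CPM in control and 53.6, 61.2 and 62.4 CPM in NETs-treated libraries. Ncaph had 60.7, 61.7 and 62.8 CPM in control and 61.3, 61.6 and 49.98 CPM in NETs-treated libraries. The groups of both overlapped, with log2 fold changes of 0.12 ± 0.10 for Smc2 and -0.10 ± 0.09 for Ncaph.

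Foxm1, a transcription factor that activates many of the other genes, had 38.8, 38.4 and 35.8 CPM in control and 21.1, 18.4 and 16.5 CPM in NETs-treated libraries, a log2 fold change of -1.01 ± 0.11 (edgeR adjusted p = 0.000106). Mki67, whose protein Ki-67 coats mitotic chromosomes and is a common marker of proliferation, had 276, 289.7 and 298 CPM in control and 158, 146 and 123 CPM in NETs-treated libraries, a log2 fold change of -1.02 ± 0.09. Foxm1 and Mki67 thus each fell by close to 1 on the log2 scale, without overlap between the groups.

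Subunits of a single complex did not always move together. Among all tested genes 27.2% were lower and 25.5% higher, and the counts per complex are to be read against these shares. In a comparison put together after the values were seen, the 4 subunits of the NDC80 complex fell, whereas in the MIS12 complex, its anchor at the kinetochore, 3 of 4 subunits rose and 1 fell. Mis12 went from 36.4 ± 1.23 to 53.5 ± 3.47 CPM (0.56 ± 0.08), and Dsn1 and Nsl1 had log2 fold changes of 0.40 ± 0.09 and 0.55 ± 0.11, while Pmf1 went from 35.5 ± 1.49 to 18.7 ± 3.43 CPM (-0.93 ± 0.14). In the RZZ complex, which recruits checkpoint proteins and dynein, Zw10 rose (0.70 ± 0.07). Zwilch (-0.16 ± 0.08) and Kntc1 (-0.22 ± 0.09) were not called, although scaling by library size only and an offset for GC content each called both lower (-0.23 and -0.30, and -0.23 and -0.23), and Kntc1 was called without NETs-treated replicate 3 (-0.25, edgeR adjusted p = 0.0458). In condensin I, Ncapd2 fell (-0.71 ± 0.08) beside the mixed values of Smc2, Smc4, Ncapg and Ncaph. In the augmin complex, which branches spindle microtubules, 5 of 8 subunits fell, from -1.11 ± 0.16 for Haus7 to -0.53 ± 0.12 for Haus8, and 3 rose, Haus3 most with 1.03 ± 0.13.

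**Figure D4:**
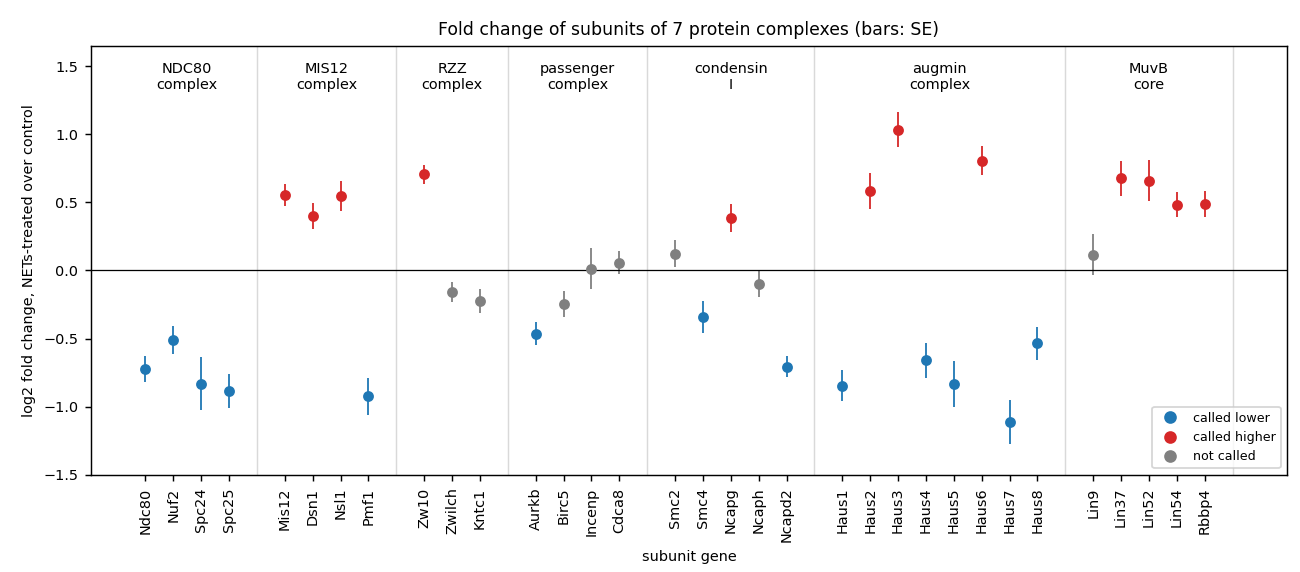
Log2 fold change of NETs-treated over control (vertical axis, SE bars) for each subunit gene of 7 complexes, coloured by call. All 4 NDC80 subunits are lower, 3 of 4 MIS12 subunits and 4 of 5 MuvB core subunits are higher, and augmin has 5 lower and 3 higher. Among all tested genes 27.2% are lower and 25.5% higher.

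Of 121 tested further genes of mitosis, in 6 lists that do not hold any of the 60, 43 fell (35.5%) and 31 rose (median log2 fold change -0.11), beside 27.2% lower and 25.5% higher among all tested genes. The number higher is thus close to the share among all tested genes, against which the counts of each list below are also to be read. In the list of centrosome and spindle genes 15 of 27 fell and 6 rose (median -0.53), with Fam83d from 8.52 ± 0.604 to 2.81 ± 1.12 CPM and the minus-end motor gene Kifc1 from 27.5 ± 4.77 to 11.9 ± 2.25 CPM, while the centriole assembly gene Stil rose by 0.86 ± 0.09. Among mitotic entry genes 7 of 13 fell and 2 rose (median -0.42). Pkmyt1, a kinase that inhibits Cdk1, went from 25.4 ± 1.91 to 11.1 ± 2.08 CPM, and Arpp19, which holds back the phosphatase PP2A in mitosis, changed by -0.74 ± 0.10. In that list Cdc25a, the CDC25 form that acts already at the entry into S phase, rose from 23.4 ± 1.22 to 35.4 ± 1.84 CPM, and Cks1b, a small Cdk-binding protein, rose by 0.62 ± 0.10.

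Among 17 genes of the anaphase-promoting complex and its regulators 8 fell and 5 rose (median -0.24). Its subunit gene Cdc27 rose from 129 ± 2.47 to 259 ± 25.98 CPM and Anapc2 by 0.74 ± 0.07, whereas Anapc15 fell (-0.99 ± 0.27), a call lost without control replicate 2 (-0.85, edgeR adjusted p = 0.0549). The count of 8 lower genes in this list was 3 without control replicate 2, 4 without control replicate 3 and 5 without NETs-treated replicate 2 or with an offset for transcript length. Among 35 further centromere, kinetochore and checkpoint genes 8 fell and 11 rose (median -0.14). Zwint, which binds Knl1, rose from 62.9 ± 0.786 to 173 ± 9.79 CPM and Cenpl by 1.35 ± 0.22, while Cenpm (-1.08 ± 0.25) and Ska2 (-0.96 ± 0.12) fell, the latter of a complex that helps NDC80 to hold microtubules. With an offset for GC content 13 genes of this list were lower.

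In the list of cohesin and further condensin genes 3 of 18 fell and 5 rose (median 0.08). Esco2, which acetylates cohesin in S phase, rose from 11.7 ± 1.27 to 19.05 ± 3.83 CPM. Smc1a, a core subunit of cohesin, had 186 ± 5.02 CPM in control and 137 ± 31.6 CPM in NETs-treated libraries, and no longer passed without control replicate 1, 2 or 3 or without NETs-treated replicate 2 (edgeR adjusted p = 0.0735, 0.0935, 0.0864 and 0.0798). Without NETs-treated replicate 2 this list had 1 lower gene, without NETs-treated replicate 1 it had 8 higher genes, and with an offset for GC content it had 5 lower genes. Of 11 further cytokinesis genes 2 fell, Depdc1a (-1.43 ± 0.18) and Depdc1b (-1.20 ± 0.22), and 2 rose, Rhoa (0.99 ± 0.07), the GTPase of the contractile ring, and Tsg101 (0.56 ± 0.08). Without NETs-treated replicate 1 the higher genes of this list numbered 4.

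**Figure D5:**
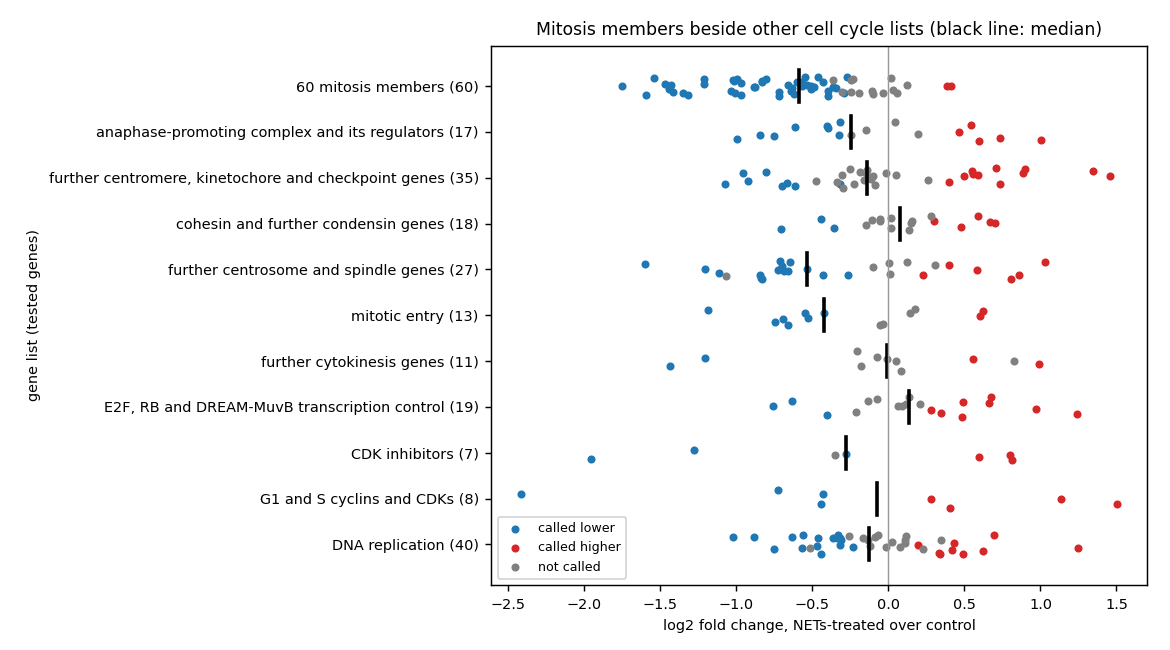
Log2 fold change of NETs-treated over control (horizontal axis) for each tested gene of the 60 mitosis genes and of 10 other cell cycle lists (rows, with the number tested), coloured by call, with the median as a black line. The median of the 60 genes is -0.58, and the other medians lie between -0.53 and 0.14.

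The lists of cell cycle regulators stand beside the same 27.2% lower and 25.5% higher among all tested genes. Of 19 tested genes of the E2F, RB and DREAM-MuvB list 3 fell and 8 rose, and E2f7 had no count in any library. Mybl2, the gene of B-MYB, which joins MuvB to activate mitotic promoters, went from 67.8 ± 3.75 to 40.1 ± 8.54 CPM (-0.76 ± 0.14), and the repressor gene E2f8 changed by -0.63 ± 0.13. Mybl1 rose from 10.8 ± 2.30 to 25.6 ± 4.41 CPM and E2f2 by 0.97 ± 0.13. Of the MuvB core, Lin37 (0.68 ± 0.13), Lin52 (0.66 ± 0.15), Lin54 (0.48 ± 0.09) and Rbbp4 (0.49 ± 0.10) rose, and Lin9 was not called (0.12 ± 0.15). Foxm1 and Mybl2 thus fell in the same libraries in which 4 of 5 genes of the MuvB core rose.

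Among 7 CDK inhibitor genes 3 fell and 3 rose, where 52.7% of all tested genes were called in one direction or the other. Cdkn1a, the gene of p21, rose from 49.9 ± 2.79 to 86.8 ± 4.23 CPM, and Cdkn1b, the gene of p27, from 27.9 ± 1.77 to 49.1 ± 6.64 CPM. The INK4 inhibitor genes did not move together. Cdkn2c and Cdkn2b went from 14.8 ± 0.685 to 3.82 ± 0.680 CPM and from 18.1 ± 0.985 to 7.45 ± 0.417 CPM. Cdkn2a changed by only -0.28 ± 0.07, and Cdkn2d rose from 21.1 ± 2.13 to 31.9 ± 4.89 CPM (0.60 ± 0.13). Cdkn1c was not called (-0.35 ± 0.32). Of 8 genes of G1 and S cyclins and their kinases 4 fell and 4 rose, with Ccnd1, the cyclin gene that growth factors induce, from 229 ± 4.34 to 42.97 ± 2.08 CPM (-2.42 ± 0.07) and Cdk6 with -0.73 ± 0.07. The cyclin E genes Ccne2 (1.502 ± 0.11) and Ccne1 (1.14 ± 0.11) rose. Of 40 DNA replication genes 16 fell and 9 rose, with a median of -0.13, Pold2 falling most (-1.02 ± 0.10), while Gins3 (1.25 ± 0.13) and Fen1 (0.70 ± 0.09) rose. The E2F core stood in the promoters of 41.9% of that list with a window and of 5.88% of the mitosis genes, and the CHR letters in 22.6% and 78.4%.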

How the data were processed

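RNA was sequenced from 3 control and 3 NETs-treated samples. The authors deposited 1 table with whole read counts per gene, a signal per gene (counts over a single factor per sample, judged from the values), and their own comparison as log2 fold changes with a p-value and an adjusted p-value. HISAT2, DESeq2 and the builds rn6 and mm10 are named, without versions, per the submitters' processing notes. How reads were counted, whether by strand and on which annotation, is not given in the sources used here. The tests used the deposited counts as the authors left them.

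Genes were filtered with filterByExpr of edgeR 4.0.16 (minimum count 10, minimum total 15), which left 15272 of 55401 genes with 99.9% of the counts. Libraries were scaled by TMM and the groups of 3 compared with the quasi-likelihood test (glmQLFit, glmQLFTest), without covariates. P-values were adjusted by Benjamini-Hochberg over all tested genes, with a threshold of 0.05. The SE is the absolute log2 fold change over the square root of F. The biological coefficient of variation was 18.5%. The script was tested on simulated counts.

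Alternatives were DESeq2 1.42.0, limma-voom (limma 3.58.1), other scalings and filters, a block for replicate number, omission of each library in turn, and the authors' deposited table. Offsets for GC content and transcript length were chosen after seeing the data. Exon overlaps, lengths and GC content came from GENCODE M21 (GRCm38), to which 98.1% of the gene IDs matched. The 60 genes and all lists were chosen with earlier results of these data known. In each role group the 3 called genes with the largest absolute log2 fold change, and every gene not called or called against the majority, are given in every library. From each further list come the 2 called genes with the largest change and up to 2 against the majority. Other genes named, such as complex subunits, were chosen after their values were seen. Replicate libraries differed by more than counting noise (chi-square per gene 9.89 to 78.3), so each was counted as 1 sample; this does not tell separate cultures from repeat preparations of 1 culture.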

Additional observations from a re-analysis of the deposited data

How the results depend on the processing

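The fall of most of the 60 genes held under every setting tried: 41 to 47 genes were lower when 1 library was left out and 44 to 49 under the other settings. The median log2 fold change of the 60 genes ran from -0.62 to -0.55 without 1 library and was -0.66 with scaling by library size only, which also moved the median of all tested genes to -0.09. The number of genes higher was 1 with a GC content offset, and ran from 1 to 2 when 1 library was left out. In the 6 further lists 33 to 44 genes were lower and 25 to 35 higher without 1 library. Over all tested genes 3451 to 4360 were lower and 3265 to 4137 higher without 1 library. Genes near no change switched sign without being called, and the cause was not tested. With scaling by library size only the log2 fold changes were -0.048 for Mad2l1, -0.061 for Incenp and -0.017 for Cdca8. Incenp was at -0.0083 with limma-voom and at -0.011 with the replicate number as a block. With the GC content offset Mad2l1 was at -0.14, Tacc3 at 0.082 and Smc2 at -0.061, and with the transcript length offset Mad2l1 was at -0.0073 and Tacc3 at 0.027. Without 1 library the log2 fold change ran from -0.041 to 0.073 for Mad2l1, from -0.17 to 0.16 for Incenp, from -0.19 to 0.015 for Plk4, from -0.13 to 0.0018 for Ncaph and from -0.020 to 0.23 for Lin9. With the replicate number as a block 47 of the 60 genes were lower and 2 higher, with a median of -0.59; the 2 genes that gained a call were Knl1 (-0.37, edgeR adjusted p = 0.0108) and Cenpn (-0.31, edgeR adjusted p = 0.037). The main fit did not pair the samples, as the replicate is only a number in the labels. Same-numbered libraries correlated at 0.237, 0.034 and 0.081 in their deviations from the group means. Control replicates 1 and 3 correlated best with the NETs-treated library of the same number, and control replicate 2 with NETs-treated replicate 3 (0.098). Whether same-numbered libraries share an origin was not tested. The median transcript of the 60 genes had 46.2% GC and 3740 bases, against 49.3% and 2858 bases over all tested genes. With 39994613 to 44274445 counts per library all 60 genes passed the filter on low counts, and the precision rests on 3 libraries per group.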

Other observations

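Promoters with a CCAAT box together with TTTGAA or TTCGAA also occur outside the 60 genes and the other cell cycle lists. Of 9943 tested genes outside the lists with a RefSeq promoter, 677 held both motifs in the 300-base window. Of these 225 (33.2%) were lower and 166 (24.5%) higher in NETs-treated cells, with a median log2 fold change of -0.10. Among the 4838 genes with neither motif 30.7% were lower and 27.5% higher, with a median of -0.05. Genes with a CCAAT box alone were lower in 29.2% and those with TTTGAA or TTCGAA alone in 30.5%. Among the 60 genes, Nuf2, Nusap1 and Kif18a were lower although their windows held neither motif, and Ccnb1 and Cenpe were lower with a CCAAT box but no CHR letters in their windows.

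In the 6 further lists of mitosis, 42.9% of 35 genes called lower and 25.9% of 27 genes called higher held the CHR letters in a promoter window. Both motifs stood in 34.3% and 11.1%. Of 38 genes not called, 44.7% held the CHR letters, a share close to that of the genes called lower, and 23.7% held both motifs. These shares are descriptions, with no test.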
